A study of Equus caballus with 6 samples.

Results

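Superficial articular cartilage of an adult horse (Equus caballus) was set against the transient cartilage of the horse fetus, the cartilage of the future bones. The comparison used 2 of the 6 arrays of the series, 1 per region, and the members were chosen by the titles of the samples. The adult array came from the outer 10% of the cartilage depth at 15 years of age. The fetal array came from hindlimbs at gestational day 40. The study collected both regions, with 2 deeper adult layers and 2 layers of the fetal joint interzone, by laser capture microdissection, in which chosen cells are cut out of a stained frozen section. No treatment or genetic change was named for any region, and all RNA was amplified by SuperAmp, a global PCR of cDNA made from mRNA. The sources used here do not give the number, sex or breed of the animals. With a single array per region, nothing here could be checked in a replicate, and no test was made. Fetal arrays lay on slide 1 and adult arrays on slide 2, so slide and stage cannot be told apart. The regions also differ both in age and in the kind of cartilage, which likewise cannot be told apart. In bulk RNA, fewer cells of a type and less RNA per cell cannot be told apart.

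Both tissues are cartilage with different fates. Transient cartilage models the skeleton, is rich in fibrils of type II, IX and XI collagen and in aggrecan, and is later replaced by bone. Articular cartilage persists through life, and its surface layer makes lubricin, the product of PRG4, which lowers friction at the joint surface. The comparison addresses how a permanent, aged joint surface differs from cartilage that is about to be replaced.

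Probes of 60 bases carry every value, and the sequences of a few show what was measured. PRG4 is shown since its 5 probes are the same stretch moved by single bases, so that they are not independent measurements. Capitals mark the 56 bases that all 5 share.
PRG4: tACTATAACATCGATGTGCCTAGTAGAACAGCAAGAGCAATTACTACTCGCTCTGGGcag
The 5 probes of MATN1 (matrilin 1, a cartilage matrix protein) share 56 bases in the same way, in capitals.
MATN1: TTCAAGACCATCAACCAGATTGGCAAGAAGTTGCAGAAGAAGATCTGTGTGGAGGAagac
For COL2A1, the gene of type II collagen, a probe with a collagen-like repeat is shown. Capitals mark 6 glycine codons that recur every 9 bases, as in a collagen repeat. The place of this stretch in the protein was not determined.
COL2A1: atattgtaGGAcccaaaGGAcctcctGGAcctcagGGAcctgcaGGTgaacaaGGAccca
EPYC (epiphycan, a small proteoglycan of growing cartilage) is shown by both its probes, which share the 20 bases in capitals and otherwise cover different sequence.
EPYC probe 1: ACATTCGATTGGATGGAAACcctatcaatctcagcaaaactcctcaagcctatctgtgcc
EPYC probe 2: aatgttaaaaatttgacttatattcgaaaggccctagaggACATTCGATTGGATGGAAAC
Genes of serum amyloid A, an acute-phase protein, had the brightest superficial signals that were missing from the transient array. Probes of SAA1 and of a second entry named SAA are shown because only 5 of the 59 bases in their overlap differ, in capitals, so the share of the signal that belongs to each is uncertain.
SAA1: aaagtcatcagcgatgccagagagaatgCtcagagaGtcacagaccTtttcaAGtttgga
SAA: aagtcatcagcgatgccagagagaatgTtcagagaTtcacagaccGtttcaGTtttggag

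The arrays differed in how much they detected. Of 43603 probes, 11525 (26.4%) lay well above background on the superficial adult array, against 19445 (44.6%) on the transient embryonic array. No spot was saturated. Signals are Agilent processed signals, in arbitrary units, scaled so that, over the 1765 probes flagged well above background on every array of the series, the 75th percentile is 1932 on each. On this scale the lowest signal flagged well above background was 6.22 on the superficial array and 3.83 on the transient array. The highest signal without the flag was 7.92 on the superficial array and 5.52 on the transient array. Any fold below that rests on a signal near these values rests on a dim spot. Differences are log2 of superficial minus transient. The number of arrays limits their precision, since the spot error (median 0.21 log2 units) covers neither animals nor amplification. Different stretches of a gene varied more, with a pooled SD of 1.23 log2 units over 470 genes.

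Of 13644 named genes, 3091 were measured on both arrays. Among these, 676 (21.9%) were at least 4-fold higher in superficial adult cartilage and 430 (13.9%) at least 4-fold lower. With a threshold of 2-fold, 1126 (36.4%) were higher and 794 (25.7%) lower. The median difference was 0.36. A further 856 genes (6.27% of all named genes) lay above background on the superficial array only and 3167 (23.2%) on the transient array only. Counts of higher and lower genes in a group below are to be read against the shares of measured genes. The shares of 6.27% and 23.2% are of all named genes, of which 6509 were measured on neither array. They are therefore too low a base for group counts given out of detected members. For those counts the base is 3167 genes on the transient array only, beside 3091 measured on both and 856 on the superficial array only.

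The split of higher and lower genes depended on the scaling. Higher and lower genes numbered 515 and 605 when the 50th percentile of those probes was used, 1042 and 272 with quantile normalization, 931 and 285 with the authors' values as deposited, and 1885 and 91 with the 75th percentile of all non-control probes. These 4 settings moved the median difference of all genes by -0.55, 0.85, 0.64 and 2.21. Group medians are therefore also given relative to the median of all genes.

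**Figure D1:**
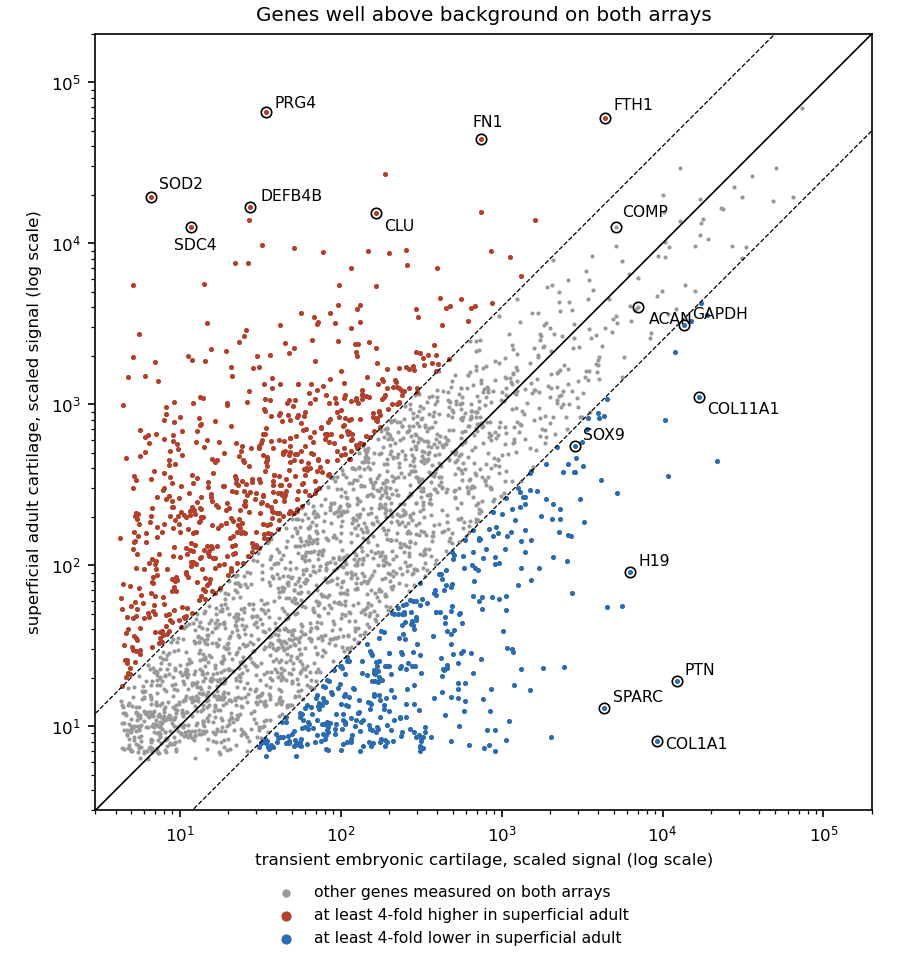
Scaled signal of each of the 3091 genes measured on both arrays, with superficial adult cartilage on the vertical axis and transient embryonic cartilage on the horizontal axis (both log scales, arbitrary units, 1 array each). The solid line marks equal signals and the dashed lines 4-fold differences. PRG4 and SOD2 lie far above the lines, COL1A1, PTN and SPARC far below, and ACAN and COMP between the dashed lines.

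The labels were first set against markers of the 2 cartilages. PRG4 had a scaled signal of 65134 in superficial adult cartilage, against 34.5 in transient embryonic cartilage, a 1887-fold difference (log2 10.88 ± 0.21, spot error). All 5 probes gave differences between 10.80 and 11.20. CLU, the gene of the secreted chaperone clusterin, had 15472 against 165, which was 93.7-fold higher (6.55 ± 0.20). Both genes were thus high on the superficial array and low, but detected, on the transient array. CLU was not highest at the surface among the adult arrays, with 23285 in the middle and 64188 in the deep layer.

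The 2 markers of cartilage collagen and matrix went the other way, and neither was detected in the adult tissue. COL2A1 was not well above background on the superficial array (2.84), against 55656 on the transient array, and was at least 8949-fold lower (log2 bound -13.13). All 6 of its probes agreed on detection. The probe with the collagen-like repeat, printed above, gave 4.78, not well above background, against 493, a bound of at least 79.3-fold. MATN1 had 1.48, not well above background, against 4204, and was at least 676-fold lower (-9.40). The label of adult cartilage is thus not borne out by COL2A1, the defining collagen of cartilage, on the superficial array. The middle and deep adult arrays did not detect COL2A1 or MATN1 above background either. Those arrays detected only 3661 and 4729 of the 43603 probes, so absence on them cannot decide whether the label holds there.

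Other genes that define cartilage were present in both tissues. ACAN, the gene of aggrecan, the main proteoglycan of cartilage, had 3993 in superficial adult cartilage and 7059 in transient embryonic cartilage. Its difference was -0.82 ± 0.20, and its 3 probes ranged from -0.82 to 0.85, on both sides of 0. The probe at 0.85 was dim, with 11.8 in superficial adult and 6.52 in transient embryonic cartilage. COMP, the gene of cartilage oligomeric matrix protein, had 12604 against 5158 (1.29 ± 0.20), and its other probe gave 3.17. SOX9, the transcription factor gene of the chondrocyte lineage, had 550.2 against 2855, 5.19-fold lower (-2.38 ± 0.20). ACAN differed by no more than its probes did. Both COMP probes were higher in superficial adult cartilage, although they lay further apart than the reported difference of 1.29. SOX9 lay below the 4-fold line on the only one of its 3 probes measured on both arrays.

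Ubiquitous genes served as a check on the scaling. GAPDH, a glycolytic enzyme gene, had 3094 against 13620.0 (-2.14 ± 0.20). Its 13 probes ranged from -2.37 to 0.42, and under the scaling on all non-control probes the reported one reversed to 0.071. ACTB, the gene of cytoplasmic beta-actin, had 9585 against 26923 (-1.49 ± 0.20), and that scaling moves it to the other side of 0 as well. Differences of this size therefore cannot be assigned a direction apart from the scaling.

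**Figure D2:**
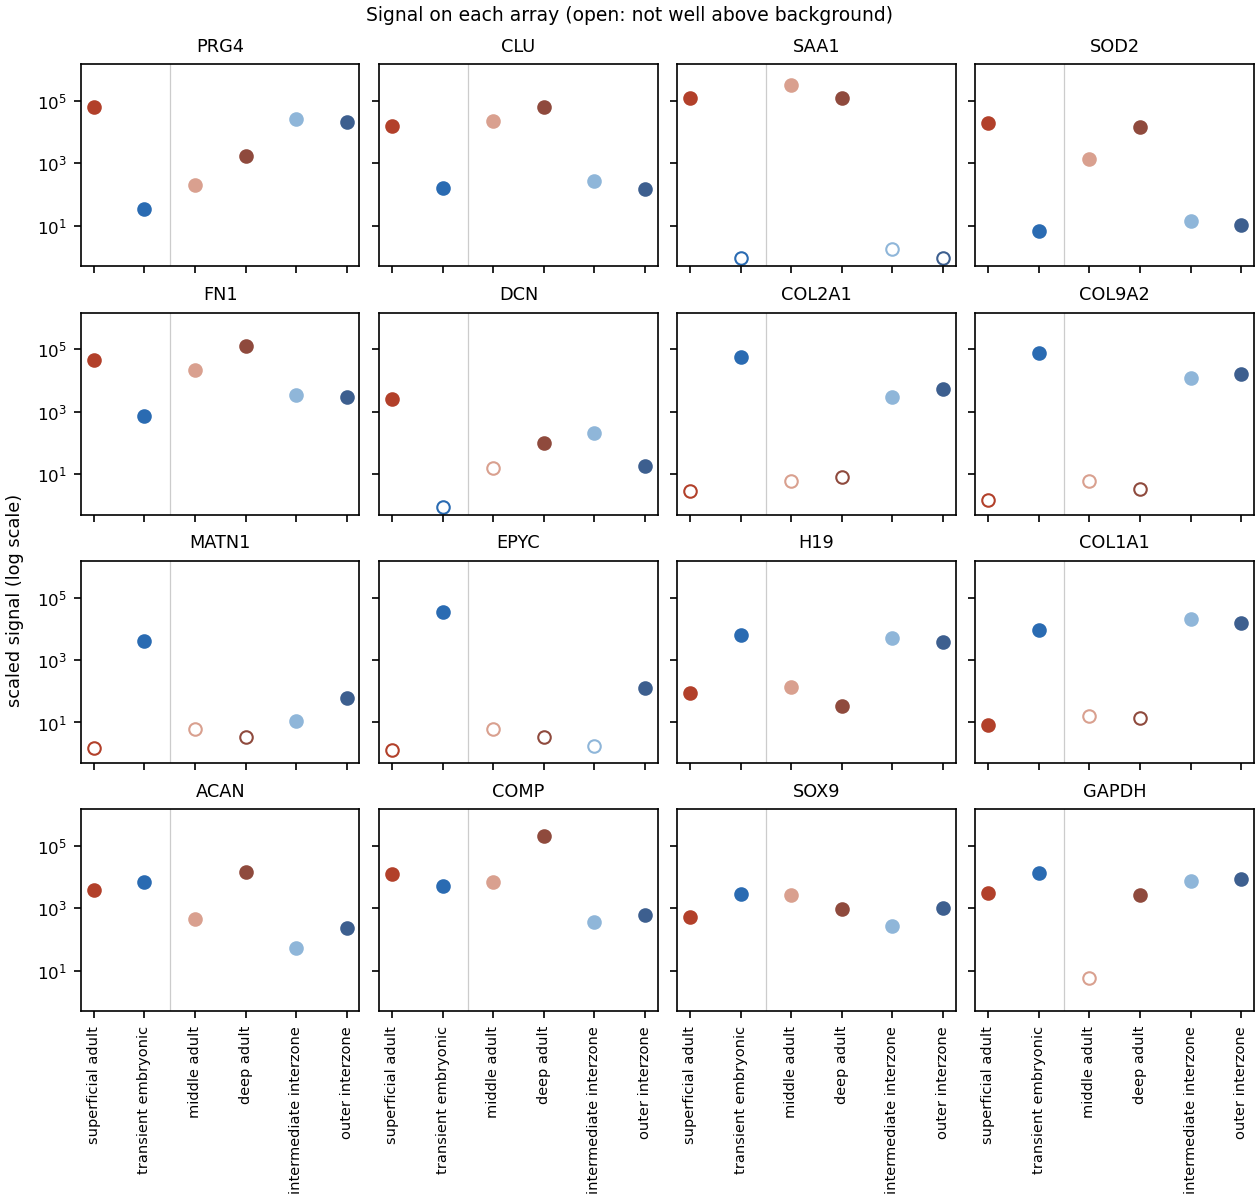
Scaled signal (log scale, arbitrary units) of 16 genes on all 6 arrays, 1 point per array, with superficial adult and transient embryonic cartilage left of the grey line. Open points were not well above background. COL2A1, COL9A2, MATN1 and EPYC are open on all 3 adult arrays, SAA1 is filled on those 3 arrays only, and PRG4 is high in superficial cartilage and both interzones.

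The genes with the largest measured excess in superficial adult cartilage included a mitochondrial antioxidant, a lubricant, cell surface proteins and an antimicrobial peptide. SOD2, the gene of mitochondrial manganese superoxide dismutase, had 19397 against 6.65, 2916-fold higher (11.51 ± 0.28). Only 1 of its 17 probes was detected on the transient array, and the other 16 were detected on the superficial array alone. SDC4, the gene of syndecan 4, a heparan sulfate proteoglycan of the cell surface, had 12529 against 11.7 (1069-fold, 10.06 ± 0.23). ERRFI1, an inhibitor of EGF receptor signalling, had 5509.6 against 5.16 (1068-fold). The transient signals of SOD2 and ERRFI1 lay close to the detection limit of that array, so their folds rest on a dim spot.

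DEFB4B, a beta-defensin gene, had 16831 in superficial adult cartilage, against 27.4 in transient embryonic cartilage (614-fold, 9.26 ± 0.21). Its signal was not well above background on the other 4 arrays. TM4SF1, a gene of a tetraspanin-related membrane protein, had 13887 against 26.9 (517-fold), and the middle and deep adult arrays had 20122 and 17435. The sixth TM4SF1 probe was detected on the transient array and not on the superficial array, so the probes of this gene disagree. ANGPTL7, a secreted angiopoietin-like protein gene, had 5608 against 14.2 (396-fold) and was bright on all 3 adult arrays, with 11814 in the middle and 5053 in the deep layer.

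The remaining leaders were PRNP (prion protein), CYP4F119 (a cytochrome P450), EMP1 (an epithelial membrane protein), FURIN (a proprotein convertase) and STOM (stomatin). Their differences lay between 7.95 and 8.41. The transient signals of CYP4F119 (4.80) and STOM (6.06) lay close to the detection limit. EMP1 had 7539.9 against 26.8, and its 3 probes gave 8.14 to 8.44. FURIN had 1834 against 7.06 and was not well above background on the other 4 arrays. PRNP had 7547 against 22.2.

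The 3 largest measured deficits in superficial adult cartilage were in COL1A1, PTN and SPARC, genes of matrix and growth factor proteins. COL1A1, the gene of the alpha 1 chain of type I collagen, the collagen of bone and tendon, had 8.08 against 9276 (1149-fold lower, -10.17 ± 0.33). The superficial value lay close to the detection limit, and the second probe of the gene was detected on neither array. PTN, the gene of the heparin-binding growth factor pleiotrophin, had 19.02 against 12217 (642-fold lower, -9.33 ± 0.23), with the 4 of its 5 probes measured on both arrays between -10.35 and -9.33. SPARC, the gene of osteonectin, a collagen-binding matricellular protein, had 12.98 against 4353 (335-fold lower, -8.39 ± 0.25), with the 4 of its 8 probes measured on both arrays between -9.13 and -8.16.

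COL16A1, a fibril-associated collagen gene, had 23.2 in superficial adult cartilage, against 2462 in transient embryonic cartilage (106-fold lower), and it was bright in the middle layer (13757). IL11RA, the gene of the interleukin 11 receptor, had 55.6 against 5611 (101-fold lower). The other genes of this set were COPS6 and PSMB1 (subunits of the signalosome and the proteasome), FAM204A, SRSF12 (a splicing factor), PARP6, LASS2 (a ceramide synthase) and RWDD1. Their differences lay between -7.88 and -6.57, with superficial signals of only 7.05 to 10.72, just above the detection limit.

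**Figure D3:**
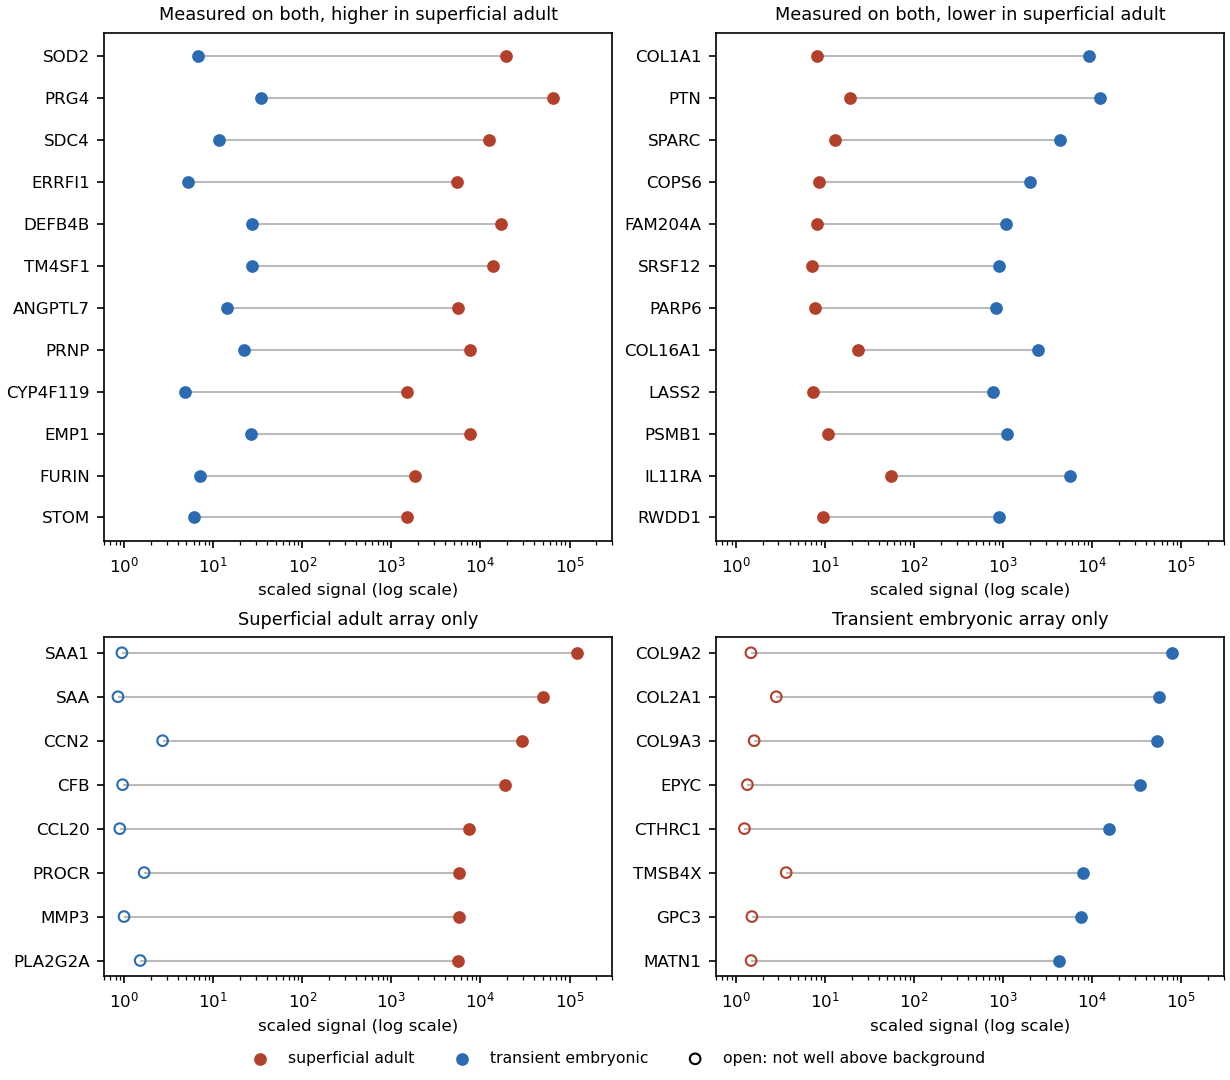
Scaled signal (log scale, arbitrary units, 1 array each) of the 12 genes with the largest difference per direction (upper panels) and of the 8 with the largest bound per direction (lower panels). Red points are superficial adult and blue points transient embryonic cartilage. Open points were not well above background, and in the upper right panel most superficial points lie near the detection limit of 6.22.

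Genes detected on 1 array only gave larger contrasts still. On the superficial array SAA1 had 121513, against 0.94, not well above background, on the transient array, at least 31739.9-fold higher. All 7 SAA1 probes were detected on the superficial array, at 14642 to 121513, and on the transient array none was. The SAA entry was at least 13031-fold higher. CFB, the gene of complement factor B, had 18944 against 0.96 (at least 4948-fold). These acute-phase and complement genes were bright on every adult array, SAA1 with 317831 in the middle and 122954 in the deep layer.

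CCN2, the gene of connective tissue growth factor, had 29058 against 2.70 (at least 7590.0-fold higher), and it was bright in the middle and deep layers (9565 and 17175). CCL20, a chemokine gene, had 7464 against 0.89 (at least 1949.7-fold), and PLA2G2A, a secreted phospholipase A2 gene, 5547 against 1.51 (at least 1449-fold). Neither was well above background on any other array. PROCR, the gene of the protein C receptor, was at least 1514-fold higher, and MMP3, the gene of the matrix proteinase stromelysin 1, at least 1500.3-fold.

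In the other direction, COL9A2 had 1.47, not well above background, in superficial adult cartilage, against 78734 in transient embryonic cartilage, at least 12660.0-fold lower. COL9A3, likewise not well above background in superficial cartilage, had 53846 in transient cartilage (at least 8658-fold lower). Both encode chains of type IX collagen, which coats the type II fibril. EPYC had 1.34 against 34706 (at least 5581-fold lower), and its second probe gave a bound of 1259-fold. Unlike the collagens, EPYC was dim in the outer interzone (124) and not well above background in the intermediate interzone.

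CTHRC1, a secreted collagen triple helix repeat protein gene, was at least 2488-fold lower, TMSB4X, the gene of the actin-binding peptide thymosin beta 4, at least 1259-fold, and GPC3, the gene of the heparan sulfate proteoglycan glypican 3, at least 1201-fold. These 3 genes and the type IX collagen genes were all detected on both interzone arrays. TMSB4X was the one among the 8 largest bounds that any adult array detected, with 99.3 in the deep layer.

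Collagens of cartilage were lower in superficial adult cartilage for every member of the list. Of 7 genes, 2 were measured on both arrays and both were at least 4-fold lower, and the other 5 were detected on the transient array only. COL11A1, the gene of a chain of type XI collagen, had 1102 against 16878 (15.3-fold lower, -3.94 ± 0.20, probes -5.94 to -3.94). COL27A1, of the fibrillar collagen type XXVII, had 339.6 against 4176 (12.3-fold lower). COL9A1 and COL11A2, which complete the list and were named after their values were seen, were lower by at least 111-fold and 186-fold. COL11A1 and COL27A1, unlike the rest of the list, were also detected on the middle and deep adult arrays.

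The proteoglycans and glycoproteins of cartilage were divided. Of 15 genes on the array 6 were measured on both arrays, with 2 higher by 2-fold or more, 3 lower and a median of -1.51 (-1.87 relative to all genes). The median turned to 0.70 under the scaling on all non-control probes. HAPLN1, the gene of the link protein that binds aggrecan to hyaluronan, had 2483 against 633 (1.97 ± 0.20), on the higher side with COMP. MATN4 (matrilin 4) had 14.3 against 597 (-5.39 ± 0.24). VCAN, the gene of versican, a proteoglycan of embryonic matrix, had 35.3 against 231 (-2.71 ± 0.21), and CYTL1, a secreted chondrocyte protein gene, had a difference of -2.19, which became 0.016 under the same scaling. Another 8 members were detected on the transient array only, among them MATN3 (matrilin 3), at least 560.2-fold lower, and none on the superficial array only.

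Small leucine-rich proteoglycans bind collagen fibrils and regulate their thickness. Of 5 members measured on both arrays, 3 were higher by 2-fold or more and 1 lower, and the median was 1.01 (0.65 relative to all genes). OGN (osteoglycin) had 1857 in superficial adult cartilage and 69.2 in transient embryonic cartilage (26.8-fold higher), and FMOD (fibromodulin) 181 and 9.95 (18.2-fold). PRELP, a collagen-anchoring member, was at the 2-fold line (1.01). LUM (lumican) went the other way, with 358 against 10833 (30.3-fold lower), though its 6 probes ranged from -4.92 to -1.90. DCN (decorin) was detected on the superficial array alone, with 2604 against 0.88 (at least 680.1-fold higher), as was ECM2, a related matrix protein gene (at least 64.9-fold). PODN (podocan) was at least 2.01-fold lower.

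Outside the cartilage set, collagen genes had a median of -0.66 (-1.02 relative to all genes) over 9 measured members, with 1 higher by 2-fold or more and 4 lower. COL1A2, the partner of COL1A1 in type I collagen, had 443 against 21901 (49.4-fold lower), and a second probe gave -11.92. Its other 7 probes were detected on the transient array only. COL6A3, a chain of the pericellular type VI collagen, was the exception, with 4053 against 479.6 (8.45-fold higher). COL6A1, another chain of the same collagen, was detected on the transient array only, at least 71.7-fold lower. COL15A1 and COL8A2 were lower by at least 27.4-fold and 8.51-fold.

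Matricellular and adhesive glycoproteins differed in both directions. Of 11 measured members, 4 were higher by 2-fold or more and 2 lower, with a median of 0.53 (0.17 relative to all genes). FN1, the gene of fibronectin, had 44228 against 747 (59.2-fold higher, 5.89 ± 0.20), and its 9 probes gave 5.67 to 6.89. THBS2 and THBS1, genes of thrombospondins, had 8981 against 147 (61.1-fold) and 15699 against 742 (21.2-fold). SPARC, in the same list, was 335-fold lower, and TGFBI, a TGF-beta-induced adhesion protein gene, was at least 498-fold lower, with 3095 in transient cartilage. THBS3, another thrombospondin gene, was at least 65.3-fold lower. The thrombospondin genes were therefore not of one direction.

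Of 5 measured elastic fibre and crosslinking genes, 2 were higher by 2-fold or more and 3 lower, with a median of -1.995 (-2.36 relative to all genes, and 0.21 unadjusted under the scaling on all non-control probes). MFAP2, a microfibril gene, had 24.1 against 462 (19.2-fold lower), LOXL3, a lysyl oxidase that crosslinks collagen, 463 against 2900.5 (6.27-fold lower), and FBLN2 (fibulin 2) 14.6 against 58.4. LOXL4, another lysyl oxidase, was 4.98-fold higher, and FBN1, the gene of fibrillin 1, named after its value was seen, 2.73-fold higher. LTBP4, a latent TGF-beta binding protein gene likewise named after its value was seen, was detected on the superficial array only (at least 9.98-fold higher). A further 6 members were detected on the transient array only, among them LOXL2 (at least 60.5-fold lower), FBLN1 (at least 43.4-fold) and LTBP3 (at least 24.4-fold).

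Enzymes that fold and modify collagen had a median near 0 (-0.27 over 22 measured members, -0.63 relative to all genes), with 6 higher by 2-fold or more and 9 lower. P4HA3, a prolyl hydroxylase subunit gene, had 29.0 against 1172 (40.4-fold lower). CRTAP, of the prolyl 3-hydroxylation complex, had 151 against 2710.4 (17.96-fold lower), and KDELR3, a receptor that returns proteins to the endoplasmic reticulum, 43.5 against 444. PLOD3, a lysyl hydroxylase gene, was 10.3-fold higher, whereas PLOD1, its paralogue, was detected on the transient array only (at least 154-fold lower). FKBP14 and FKBP10, collagen chaperone genes, were lower by at least 102-fold and 65.5-fold, and none of the list was detected on the superficial array only.

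Synthesis of glycosaminoglycan chains showed no common direction, with 4 of 10 measured genes higher by 2-fold or more, 2 lower and a median of 0.28 (-0.09 relative to all genes). SLC26A2, the sulfate transporter gene, had 568 against 9.59 (59.2-fold higher), and DSE, the gene of dermatan sulfate epimerase, 537 against 31.0 (17.3-fold higher). EXT1, of the heparan sulfate polymerase, had 24.8 against 538 (21.8-fold lower), with 5 probes between -5.08 and -4.44. EXT2, its partner, was at least 43.6-fold lower, so both polymerase subunits lay on the lower side. PAPSS1, which makes the sulfate donor, was 5.09-fold lower, and SLC35B2, which carries that donor into the Golgi, at least 14.2-fold lower. CHST3, a chondroitin sulfotransferase gene, was at least 6.66-fold higher.

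**Figure D4:**
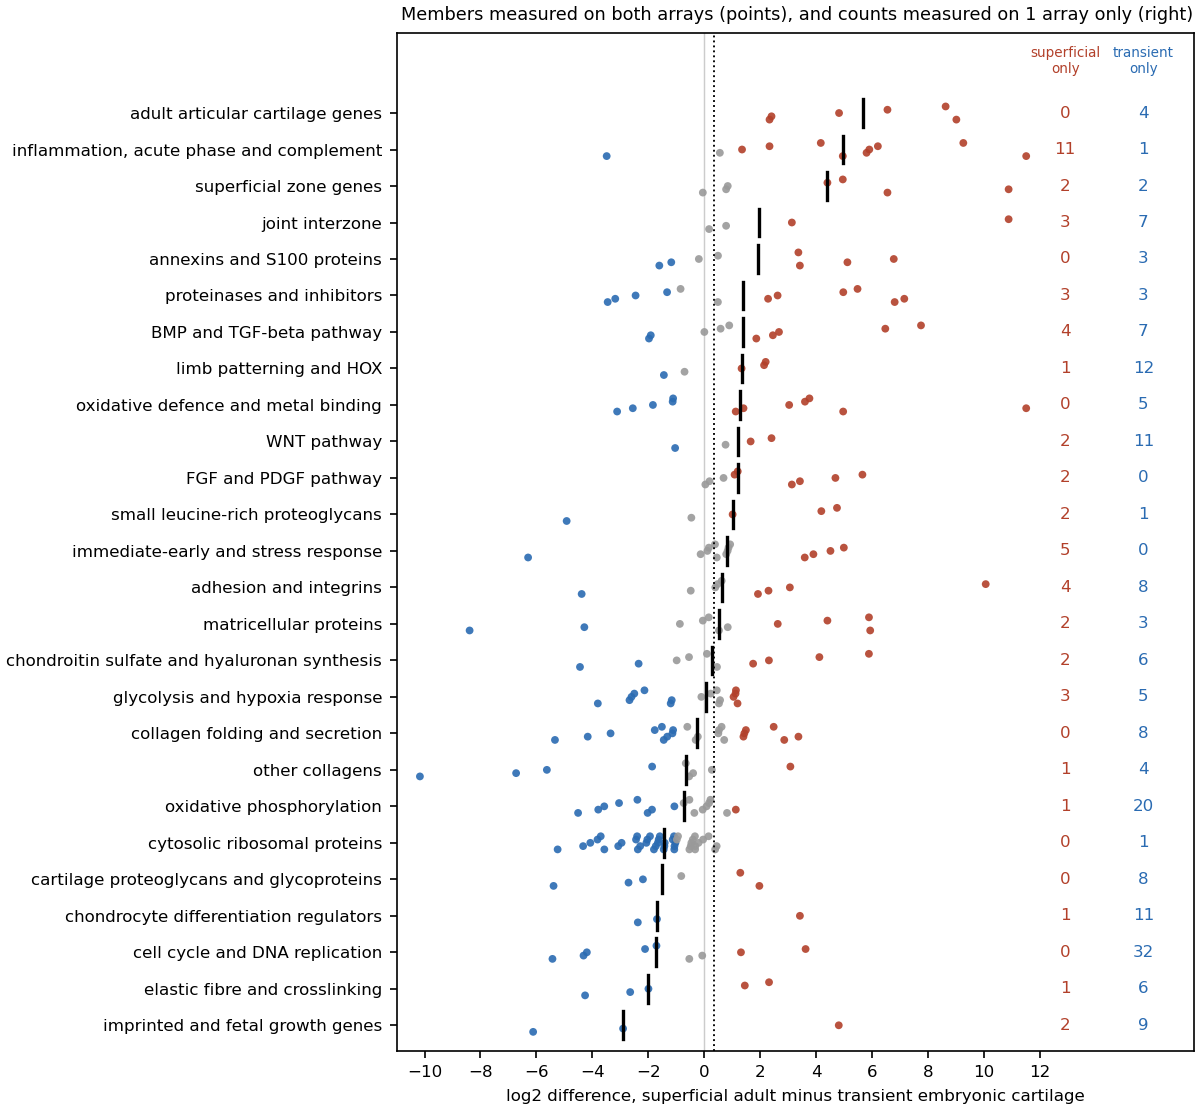
Log2 differences, superficial adult minus transient embryonic cartilage, of the members of each gene list that were measured on both arrays (points, red at least 2-fold higher, blue at least 2-fold lower), with the list median (black bar) and the median of all genes (dotted line, 0.36). The numbers at the right count members detected on 1 array only. The lists were chosen with earlier results of these data known, so their medians are descriptions. The adult cartilage, inflammation and superficial zone lists have the highest medians, and 32 cell cycle genes were detected on the transient array only.

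Genes listed for the joint surface and for adult articular cartilage lay mostly on the higher side where both arrays measured them. Of 7 superficial zone genes measured on both arrays, 4 were higher by 2-fold or more and 0 lower, with a median of 4.40 (4.04 relative to all genes). Besides PRG4 and CLU, VCAM1, a vascular and synovial cell adhesion molecule gene, had 3909.6 against 126 (31.0-fold higher). CD44, the hyaluronan receptor gene, had 3019 against 0.87 (at least 789-fold higher), and CREB5, a transcription factor known to support PRG4 expression in bovine cells, 55.9 against 0.85 (at least 14.6-fold). TNC (tenascin C) and ERG, both in this list, were within 2-fold (-0.05 and 0.78). SFRP2, a secreted modulator of WNT signalling, was detected on the transient array only, with 1656, at least 266-fold lower. Genes of the joint interzone, the fetal tissue from which the joint forms, had 2 of 4 measured members higher by 2-fold or more and 0 lower, with a median of 1.96 (1.596 relative to all genes), and 7 were on the transient and 3 on the superficial array only.

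The list of adult articular cartilage genes had 6 of 6 measured members at least 4-fold higher, with a median of 5.68 (5.32 relative to all genes). This list, like the others, was chosen with earlier results of these data known. Its count and median are therefore descriptions and not independent support for a difference. Beside TM4SF1, ANGPTL7 and CLU, it included PCOLCE2, an enhancer of procollagen processing, with 7306 against 259 (28.2-fold higher). Another 4 of its 14 genes on the array were detected on the transient array only, among them ITM2A, a membrane protein gene of early chondrogenesis (at least 247-fold lower), APOD (apolipoprotein D, at least 56.2-fold) and CRTAC1 (at least 2.18-fold). The median over measured members thus leaves these 4 genes out. With no filter on dim probes, 7 of 14 genes were higher by 2-fold or more and 3 lower. The median was then 1.02, against 0.55 for all genes.

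Regulators of chondrocyte differentiation were mostly detected on the transient array only. Of 15 detected members, 3 were measured on both arrays, 11 on the transient array only and 1 on the superficial array only. GLI1, a target of hedgehog signalling, had 22.6 against 72.9 (-1.69 ± 0.22). The median of the 3 was -1.69 (-2.05 relative to all genes), and 0.52 under the scaling on all non-control probes. DLX5, a homeobox gene of cartilage and bone, was at least 72.1-fold lower, and PTH1R, the receptor of parathyroid hormone-related protein, at least 26.4-fold lower (1.40 against 164). The ligand of that receptor, PTHLH, was the one on the superficial array only, with 682 against 0.94 (at least 178-fold higher). FGFR3, a receptor that restrains chondrocyte growth, had 1811 against 169 (higher by 3.42 ± 0.20 log2 units).

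Of 6 detected genes of hypertrophy and mineralisation, 2 were measured on both arrays, 3 on the superficial array only and 1 on the transient array only. COL10A1, MMP13 and ALPL, the main markers of chondrocyte hypertrophy in this list, were not well above background on either array. ANKH, the gene of a pyrophosphate transporter, had 302 against 5.11 (59.0-fold higher). SPP1 (osteopontin) had 1313 against 0.86 (at least 343-fold higher), and IBSP (bone sialoprotein) 936 against 1.17 (at least 244-fold). BGLAP (osteocalcin) differed little (0.61). SP7, the osteoblast transcription factor gene, lay close to the detection limit of the superficial array (8.00, at least 2.06-fold higher). Markers of osteoblasts and osteoclasts beside these included CTSK, the gene of cathepsin K, with 3169.9 against 71.0 (44.6-fold higher). ACP5, CALCR and PHEX, in the same marker list, were well above background on neither array. CTSK made up most of the superficial sum of that list. The summed level of that marker list was 4125 over 4 of 7 genes on the superficial array and 78.6 over 2 of 7 on the transient array, and its part in the results was not tested.

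Signalling genes were compared pathway by pathway. The BMP and TGF-beta genes included 10 measured on both arrays, 5 higher by 2-fold or more and 2 lower, and the median was 1.38 (1.02 relative to all genes). INHBA, the gene of the activin A subunit, had 3193 against 14.8 (215-fold higher), and SMAD7, an inhibitor that TGF-beta itself induces, 571 against 6.43 (88.8-fold). TGFB2, a ligand, was 6.37-fold higher and FSTL1, a secreted modulator, 5.48-fold. The ligand genes GDF6 and BMP6 were detected on the superficial array only, with 1472 (at least 384-fold higher) and 1434 (at least 375-fold). GDF6 was not well above background on the other 5 arrays, interzones included. TGFBI, described above, was again the largest bound on the lower side.

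WNT genes were few on the superficial array. Of 17 detected, 4 were measured on both arrays, 11 on the transient array only and 2 on the superficial array only. FRZB, a secreted WNT antagonist of articular cartilage, had 289.8 against 54.8 (5.29-fold higher), and CTNNB1 (beta-catenin) 464 against 147 (3.16-fold). AXIN1 and ROR2 differed by 0.76 and -1.04. SFRP1, another secreted antagonist, and TCF7L1, a transcription factor of the pathway, were lower by at least 47.9-fold and 46.7-fold. The median of the 4 measured genes, 1.21 (0.85 relative to all genes), became -0.18 with no filter on dim probes.

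In the FGF and PDGF list, 6 of 9 measured genes were higher by 2-fold or more and 0 lower, with a median of 1.197 (0.84 relative to all genes), and none was detected on the transient array only. SPRY2, a feedback inhibitor of FGF signalling, had 577 against 22.4 (25.8-fold higher), with all 5 probes between 4.69 and 5.12. PDGFC, a ligand, was 8.76-fold higher, and the receptor gene PDGFRA at least 112-fold (427 against 0.90). FGF18, a ligand active on cartilage, was dim on the superficial array (11.1). FGFR1 gave 5.65 with 1 probe and -1.11 with the other, so no direction is given for it, although the count of 6 includes it. FGF1 and PDGFRB, also in that count, had dim transient signals (6.65 and 4.84). Under the stricter filter on dim probes, 4 of 6 measured genes were higher by 2-fold or more and 0 lower.

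Genes of insulin-like growth factor signalling differed in both directions. IGF1R, the receptor gene, had 936 against 33.4 (28.0-fold higher). The ligand gene IGF2 was on the transient array only, with 2.72 against 335 (at least 53.8-fold lower). IGF2R, another receptor gene, was at least 24.4-fold lower, and IGF1 was well above background on neither array. IGFBP5 and IGFBP3, genes of binding proteins, had 1426 against 85.5 (16.7-fold higher) and 37.96 against 4.66 (8.15-fold higher). The transient signal of IGFBP3 lay close to the detection limit. IGFBP2 was detected on the transient array only, at least 27.7-fold lower, as was IGFBP4, dim on that array (11.8). Among imprinted and fetal growth genes, 9 were detected on the transient array only and 2 on the superficial array only. H19, the imprinted fetal RNA, had 90.6 against 6289.6 (69.4-fold lower, -6.12 ± 0.21), MEST 379 against 2833 (7.48-fold lower), CDKN1C, an imprinted inhibitor of the cell cycle, 1.29 against 2239.8 (at least 360.2-fold lower) and IGF2BP2, an RNA-binding protein gene, at least 125-fold lower. GRB10, imprinted in other mammals, went the other way with 439 against 0.86 (at least 115-fold higher). H19 was 32.5 to 141 on the 3 adult arrays, against 3679 to 6289.6 on the 3 fetal arrays.

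Genes that pattern the limb were detected mainly in the fetal tissue. Of 18 detected, 12 were on the transient array only and 1 on the superficial array only. HOXC9 had 3.57 against 1285 (at least 207-fold lower), HOXA10 1.31 against 805 (at least 129.5-fold) and HOXA9 was at least 29.3-fold lower. All 3 are homeobox genes that give position along the body and limb axis. The 5 measured on both arrays did not share that direction, with a median of 1.33 (0.97 relative to all genes) that became -0.71 under the stricter filter on dim probes and -0.53 with no filter. HOXD10 and IRX5 were 4.40-fold and 4.58-fold higher, from superficial signals of 32.7 and 39.2, HOXD12 was 2.52-fold higher, and PRRX2 was 2.72-fold lower.

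Inflammation, acute phase and complement made up the list with the most members on the superficial side among the lists examined. Of 11 measured genes, 9 were higher by 2-fold or more and 1 lower, with a median of 4.95 (4.59 relative to all genes, and 3.84 to 4.98 over the settings tried). Another 11 were detected on the superficial array only and 1 on the transient array only. Beside SAA1, CFB, CCL20, SOD2 and DEFB4B, TNFRSF11B, the gene of osteoprotegerin, a decoy receptor, had 3094 against 41.9 (73.9-fold higher). C1R, a complement protease gene, had 6974 against 117 (59.7-fold higher, 5 probes 5.45 to 5.90). The 1 lower gene among those measured was IL11, a cytokine gene named after its value was seen (27.8 against 312, -3.49).

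Markers of macrophages and of other cells with MHC class II were examined beside that list. Of 12 on the array, 4 were measured on both arrays, with differences of -2.86 (CD68), 1.56 (CSF1R), -0.39 (LAPTM5) and 0.03 (CCL3), 1 (AIF1) was on the transient array only and 7 were on neither. Their summed level was 66.0 over 4 genes in superficial adult cartilage and 199 over 5 in transient embryonic cartilage. CD14, CD74 and the 3 C1Q genes, which define such cells, were not well above background on either array.

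Matrix proteinases and their inhibitors were both higher in places. Of 12 measured, 6 were higher by 2-fold or more and 4 lower, with a median of 1.38 (1.02 relative to all genes). TIMP3, an inhibitor of matrix proteinases, had 27019.7 against 190.0 (142-fold higher, 5 probes 6.99 to 7.15), and TIMP2 258 against 8.24 (31.3-fold). ADAMTS5, an aggrecan-cleaving proteinase gene, had 1034 against 9.23 (112-fold higher). MMP1, the gene of interstitial collagenase, had 5434 against 0.94 (at least 1419-fold higher), and no other array detected it with this probe. SERPINF1, a secreted serpin gene, was at least 245-fold lower (1.502 against 1525).

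Immediate-early and stress response genes, which cells switch on within a short time of a stimulus, had a median of 0.81 (0.45 relative to all genes) over 14 measured members, with 4 higher by 2-fold or more and 1 lower, and 5 more were detected on the superficial array only. KLF4, a transcription factor gene, had 1336 against 42.0 (31.8-fold higher), MCL1, a survival gene, 845 against 37.1 (22.8-fold) and FOS, a subunit of the AP-1 factor, 73.7 against 4.93 (15.0-fold). JUN, its AP-1 partner, was on the other side with 22.9 against 1805 (78.7-fold lower). GADD45A, a DNA damage response gene, was at least 282-fold higher, KLF10 at least 64.7-fold and IER3 at least 49.3-fold. The 2 subunits of AP-1 named here thus differed in opposite directions, though the fold of FOS rests on a transient signal close to the detection limit.

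Oxidative defence and metal-binding genes split, with 7 of 12 measured members higher by 2-fold or more and 5 lower. Beside SOD2, GPX3, a secreted glutathione peroxidase gene, had 4159 against 133 (31.3-fold higher), FTH1, the heavy chain of ferritin, 59776 against 4412 (13.5-fold) and CAT (catalase) 344 against 28.4 (12.1-fold). GSTP1, PRDX5 and GPX1, cytosolic and mitochondrial detoxifying enzymes, were detected on the transient array only, at least 70.4-fold, 47.7-fold and 3.62-fold lower. The median, 1.26 (0.90 relative to all genes), became -0.61 with no filter on dim probes.

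Genes of the cell cycle and of DNA replication formed the list with the most members detected on the transient array only. Of 41 detected members, 9 were measured on both arrays, 32 on the transient array only and 0 on the superficial array only. MCM6, a subunit of the replicative helicase, had 5.48 against 1619.9 (at least 260.5-fold lower), STMN1, the gene of the microtubule regulator stathmin, 1.41 against 1127 (at least 181-fold) and CCNB2 (cyclin B2) 1.58 against 950.2 (at least 153-fold). Of the 9 measured, 5 were lower by 2-fold or more and 2 higher, with a median of -1.71 (-2.07 relative to all genes, and 0.50 unadjusted under the scaling on all non-control probes). CCND2 (cyclin D2) had 8.53 against 367 (43.0-fold lower), PCNA, the sliding clamp, 22.9 against 457 (19.9-fold) and MCM3 13.8 against 253 (18.3-fold). The fold of CCND2 rests on a superficial signal close to the detection limit. GMNN (geminin, an inhibitor of replication licensing) was 12.3-fold higher. Of 5 genes of cyclin-dependent kinase inhibitors, which brake the cycle, 1 was measured on both arrays, with a difference of -1.99, 1 was on the superficial and 2 were on the transient array only.

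Ribosomal protein genes gave the best measured list, with 42 of 43 detected members on both arrays. Of these, 28 were lower by 2-fold or more and 0 higher, with a median of -1.44. Relative to all genes the median was -1.80, and -2.81 to -1.62 over the settings tried, although the unadjusted median was 0.77 under the scaling on all non-control probes. RPS10 had 11.8 against 446 (37.9-fold lower), RPL27 75.2 against 1267 (16.8-fold) and RPS16 162 against 2276 (14.1-fold). Over all 42 the differences ranged from -5.24 to 0.44. Ribosomal protein genes have many near-identical copies, so single members are uncertain.

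Subunits of the respiratory chain had a median below that of all genes. Of 38 detected, 17 were measured on both arrays, with 1 higher by 2-fold or more, 8 lower and a median of -0.74 (-1.10 relative to all genes), and 20 were on the transient array only. NDUFB1, of complex I, had 28.4 against 647 (22.8-fold lower), and ATP5MC1, of the ATP synthase, 95.9 against 1326 (13.8-fold). NDUFB10 and NDUFS6 were lower by at least 159-fold and 128-fold. COX7C, of complex IV, was the one on the superficial array only (741, at least 194-fold higher).

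Of 16 measured glycolysis and hypoxia response genes, 4 were higher by 2-fold or more and 7 lower, with a median of 0.06. Relative to all genes the median was -0.30, and -1.23 to -0.20 over the settings tried. With the 50th percentile the counts were 0 higher and 7 lower. The enzyme genes ALDOC, GPI and TPI1 were 14.0-fold, 6.38-fold and 6.07-fold lower, and EGLN1, an oxygen sensor gene, 5.66-fold lower. PGAM1, another glycolytic enzyme, was at least 268-fold lower. PFKP, a phosphofructokinase isoform, and NDRG1, a hypoxia-induced gene, were higher by at least 159.9-fold and 207-fold.

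Cell surface receptors and calcium-binding proteins completed the comparison. Among adhesion genes, 4 of 9 measured were higher by 2-fold or more and 1 lower (median 0.62, 0.26 relative to all genes), and 4 were on the superficial and 8 on the transient array only. SDC3, a syndecan gene, was at least 1380.0-fold higher, GPC6, a glypican, 8.34-fold higher, and ITGB5, an integrin subunit, 20.9-fold lower. ITGB1, the common integrin beta chain, gave -2.89 to 2.30 over 3 probes and has no settled direction. Of 8 annexin and S100 genes, 4 were higher and 2 lower (median 1.93, 1.57 relative to all genes). ANXA1, an anti-inflammatory annexin, had 2136 against 19.5 (109.5-fold higher), S100A6 729.6 against 21.01 (34.7-fold), and ANXA7 and ANXA11 were 10.3-fold and 10.69-fold higher. S100B, a chondrocyte and glial marker, was on the transient array only (1.25 against 475, at least 76.4-fold lower).

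Markers of other tissues were searched on both arrays. Of 5 blood markers, 0 were detected on the superficial array and 2 on the transient array, HBB with 77.8 and HBZ with 7.38. Of 11 skeletal muscle markers, 3 were detected on the superficial array, with a summed level of 83.0, and 8 on the transient array, with 892. Among the latter were ACTA1 (skeletal actin) with 55.7 against 493 and TNNT1 (a troponin) with 1.48 against 141. The muscle list was not of 1 direction. Of its 2 members measured on both arrays, 1 was higher by 2-fold or more and 1 lower. Another 1 was on the superficial array only, and 6 were on the transient array only. Smooth muscle markers summed to 350.0 over 3 of 4 genes on the superficial array, mostly TAGLN (314), and to 12.8 over 1 of 4 on the transient array. Markers of endothelium, nerve and epithelium had at most 2 members detected per array.

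Synovium, tendon and perichondrium markers summed to 4352 over 5 of 11 genes on the superficial array and 14619 over 6 of 11 on the transient array. MKX, a tendon transcription factor gene, had 696 against 5.66 (123-fold higher), and COL3A1, the gene of type III collagen, 3517 against 5113, with probe differences of -0.54 and 1.76, on both sides of 0. COL1A1 made up most of the transient sum. The part of such cells in the matrix results was not tested.

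The other 4 arrays, which took no part in the difference, show where these genes were detected elsewhere. Of the 3167 genes on the transient array only, 2086 (65.9%) were also above background in the outer interzone and 1780 (56.2%) in the intermediate interzone, against 204 (6.44%) in the deep and 126 (3.98%) in the middle adult layer. The 856 genes on the superficial array only were detected in the deep layer for 147 (17.2%), in the middle layer for 126 (14.7%), in the outer interzone for 276 (32.2%) and in the intermediate interzone for 198 (23.1%). The middle and deep arrays detected only 3661 and 4729 of the 43603 probes, so absence there says little. The outer and intermediate interzone arrays detected 18874 and 16109. The shares above were not adjusted for this, so they do not separate fetal from adult tissue apart from how much each array detected. Of the 676 genes at least 4-fold higher, 577 were detected on an interzone array and 216 on another adult array. For the 1171 genes within 2-fold these counts were 1113 and 580, and for the 430 at least 4-fold lower 416 and 172. Both sets were thus detected elsewhere in a larger part than the higher genes.

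**Figure D5:**
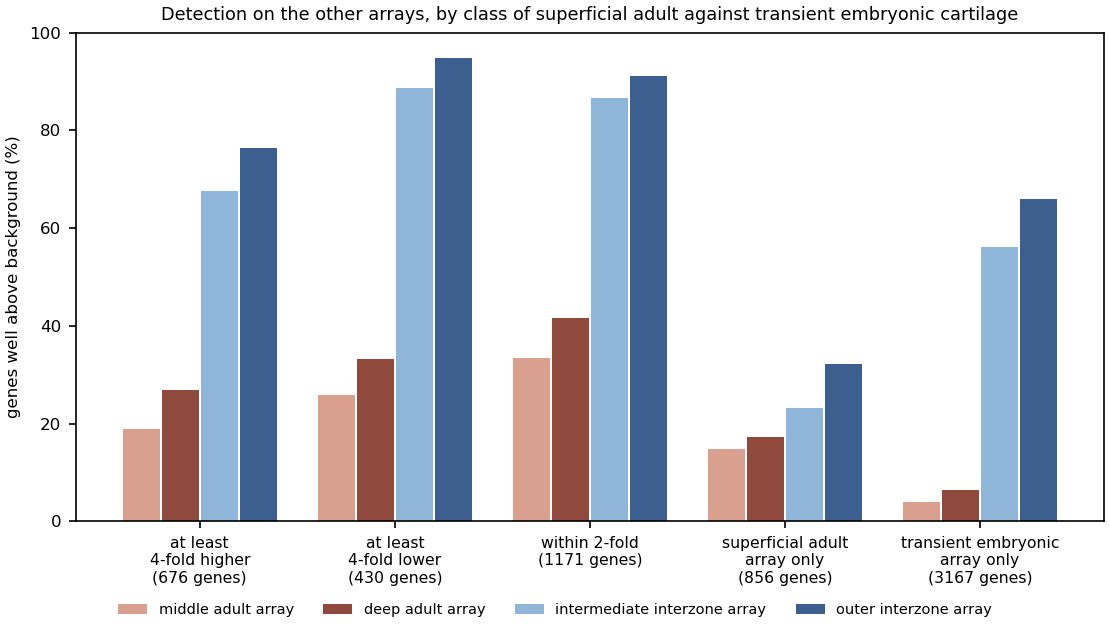
Percentage of genes well above background on each of the other 4 arrays (bars), for the genes at least 4-fold higher, at least 4-fold lower or within 2-fold in superficial adult against transient embryonic cartilage, and for those detected on 1 array only. Genes of the transient array only were found on the interzone arrays in 56.2% and 65.9% of cases and on the adult arrays in under 7%. The percentages were not adjusted for how many probes each array detected, which was far fewer on these adult arrays.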

How the data were processed

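Gene expression was measured on 1-colour Agilent horse arrays, 1 per region. The deposited intensity values are processed signals from Agilent Feature Extraction 10.7.3.1, background-subtracted within each array and not normalized between arrays, per the file headers. The deposited series table holds the same signals as a ratio to each array's median, as a check of its values showed (lowest log2 correlation of an array 0.999998), and its scale, centring and direction were not given in the sources used here.

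From the processed signals, log2 values were computed, control spots and outlier spots were left out, spots of a probe were averaged, and each array's own 75th percentile, taken from the 1765 probes flagged well above background on every array of the series, was subtracted. Probes not well above background on 1 array gave bounds, taken against the higher of that array's lowest well-above-background signal and the probe's own signal. Probe names came from the arrays' annotation through RefSeq tables (assembly TB-T2T) by gene number, symbol or accession, and by exact gene name or older symbol for list members. Of 43603 probes, 24074 were named and 19529 were not. The reported probe of a gene had the highest mean over the arrays compared, with probes measured on both arrays preferred.

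The named genes were the 12 largest differences per direction among genes whose probes measured on both arrays all went the same way, the 8 largest bounds per direction, up to 4 measured members and 3 bounds of each list, and 9 marker and control genes. A gene that this rule picks is not reported here. Members and gene lists were chosen with earlier results of these data known. With 1 array per group no test was made. A difference of 4-fold or 2-fold is a size, not a significance call. Alternatives were other scalings, quantile normalization, normexp (offset 50), the authors' table, other probe rules, other filters on dim probes and thresholds of 2-fold and 8-fold. The mean over separate stretches of a gene was added after the data were seen. The comparison script was tested on simulated data. Software was Python 3.11.15 with numpy 2.4.6, pandas 2.3.3 and matplotlib 3.10.9, and R 4.3.3 with limma 3.58.1.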

Additional observations from a re-analysis of the deposited data

Results flagged for a closer look

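Probes with no gene name took no part in the comparison by gene. Of 19529 such probes, 4100 lay well above background on both arrays, and 1333 of these were at least 4-fold apart, 672 higher in superficial adult cartilage and 661 lower. A further 963 were above background on the superficial adult array only and 4472 on the transient embryonic array only.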

How the results depend on the processing

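No paired analysis was possible because each group has 1 array, and for the same reason no array could be left out. Main counts were 676 genes at least 4-fold higher in superficial adult cartilage and 430 lower. They became 1885 and 91 with scaling on all non-control probes, 1042 and 272 with quantile normalization, 449 and 195 with normexp, 1703 and 3189 among 13644 genes with no filter on dim probes, 1126 and 794 at 2-fold and 404 and 225 at 8-fold. With the authors' values unscaled, 285 genes were lower. The median of all genes became 2.57 with all non-control probes. That setting also reversed CYTL1 (0.016), GAPDH (0.071) and the list medians of cartilage proteoglycans (0.70), the cell cycle (0.50), chondrocyte regulators (0.52), ribosomal proteins (0.77) and elastic fibres (0.21). Its own construction adds the shift of 2.21 to every difference. ITGB1 reversed to -3.45 with quantile normalization, -2.89 with the brightest probe over 6 arrays and -0.32 with the mean over stretches. With no filter the WNT (-0.18), limb and HOX (-0.53) and oxidative defence (-0.61) medians reversed, and with the stricter filter the limb and HOX median (-0.71). The cause was not tested for these. Of 109 named genes at least 4-fold apart, 106 kept their direction under the alternatives run, and of 18 list medians of at least 2-fold, 10 did. Several alternatives could not reverse a 4-fold difference. Some shift every difference by a small constant (-0.55, -0.33 or 0.64), and the authors' values with the same scaling are the same signals. Other probe rules cannot change a gene with a single probe. The count of 106 was therefore largely fixed in advance. Among 167 genes at least 4-fold apart and probed in several stretches, 22 had stretches on both sides of 0. Dim spots limit the folds: 8 of the 12 largest deficits rest on superficial signals under 11.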
